A study of Homo sapiens with 9 samples.

Results

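The 9 genes described here encode HLA class I molecules and the machinery that supplies them with peptide. They were taken by symbol from the 58735 genes of the count table: the heavy chains HLA-B, HLA-C, HLA-E and HLA-F, the light chain B2M, the peptide transporter subunits TAP1 and TAP2, and the immunoproteasome subunits PSMB8 and PSMB9. All 9 passed the filter on low counts, which left 16350 genes for testing.

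RNA was sequenced from SKOV3 cells, an established human ovarian cancer line, in 3 groups of 3 libraries. The WT group expressed wild-type CDK9, the ALK inhibitor group was the same WT CDK9 cells treated with an ALK inhibitor for 24 h, and the Tyr19Phe group expressed CDK9 with phenylalanine in place of the tyrosine that ALK phosphorylates. CDK9 is the kinase of the elongation factor P-TEFb. The study describes stable lines that re-express CDK9 after depletion of the endogenous protein, but does not say outright that the sequenced cells were these. The mutation and the line that carries it cannot be told apart. Nothing in the labels says that the libraries of a group came from separate cultures, so p-values measure the spread between these libraries, which may be technical. Libraries held 18169050 to 29320184 counts, with the Tyr19Phe libraries the deepest. Genes detected numbered 19944 in ALK inhibitor replicate 2 against 21911 and 21915 in its group, and 20635 in Tyr19Phe replicate 3 against 22609 and 22744.

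A class I molecule consists of a heavy chain and B2M, and presents short peptides at the cell surface to CD8 T cells and natural killer cells. Proteasomes, including immunoproteasomes in which PSMB8, PSMB9 and PSMB10 replace PSMB5, PSMB6 and PSMB7, cut proteins into peptides, and TAP1 and TAP2 carry these into the endoplasmic reticulum. Many of these genes respond to interferon, and NLRC5 is a transcriptional coactivator of class I genes.

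CDK9 itself was counted at 48.4, 49.7 and 47.6 CPM (counts per 1000000 counts of the library, scaled by TMM) in the WT libraries, at 43.8, 47.3 and 45.7 CPM with the ALK inhibitor and at 52.4, 53.1 and 59.5 CPM with Tyr19Phe. The Tyr19Phe libraries were the highest. The log2 difference from WT was 0.18 (edgeR adjusted p = 0.106), and that from the ALK inhibitor group was 0.27 (edgeR adjusted p = 0.00961), a call lost without ALK inhibitor replicate 1 or Tyr19Phe replicate 3. Gene counts did not separate endogenous from introduced CDK9.

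RefSeq promoter windows (GRCh38.p14) matched 8 of the 9 genes, without HLA-E, with 10 windows in all since TAP1 and PSMB8 have 2 each. Those of HLA-B, HLA-C, B2M, TAP1 and PSMB9 are printed, the genes with a window that were called higher with Tyr19Phe in all 17 refits, with the upstream one for TAP1. Each line gives the 250 bases before the start site, 5′ to 3′ on the gene's strand, with capitals for matches on either strand to 5 motifs: GAAA and GAAA with any 2 bases between them (the core of interferon-stimulated response elements), a variant with GAA, any 2 bases and GAAAC, a NF-kappaB motif with GGGGA, any base and TCCC, and the letters TGACGC and CCAAT.
HLA-B, chr6:31357180-31357429 (-): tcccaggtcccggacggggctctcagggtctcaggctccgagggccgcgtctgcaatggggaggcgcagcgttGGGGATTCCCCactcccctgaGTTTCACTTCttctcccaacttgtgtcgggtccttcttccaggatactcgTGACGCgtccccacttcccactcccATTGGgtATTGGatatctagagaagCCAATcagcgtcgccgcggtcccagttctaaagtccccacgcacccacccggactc
HLA-C, chr6:31272093-31272342 (-): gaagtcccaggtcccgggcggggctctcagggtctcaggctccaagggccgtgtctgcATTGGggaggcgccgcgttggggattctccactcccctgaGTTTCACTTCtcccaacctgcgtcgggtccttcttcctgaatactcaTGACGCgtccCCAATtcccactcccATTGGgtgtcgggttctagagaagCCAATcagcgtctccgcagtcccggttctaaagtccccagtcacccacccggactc
B2M, chr15:44711267-44711516 (+): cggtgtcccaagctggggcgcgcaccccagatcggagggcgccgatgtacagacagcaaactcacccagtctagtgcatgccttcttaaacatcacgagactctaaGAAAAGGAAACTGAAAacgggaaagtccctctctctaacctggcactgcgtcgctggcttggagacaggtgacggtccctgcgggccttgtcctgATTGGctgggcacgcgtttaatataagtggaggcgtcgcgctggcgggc
TAP1, chr6:32853705-32853954 (-): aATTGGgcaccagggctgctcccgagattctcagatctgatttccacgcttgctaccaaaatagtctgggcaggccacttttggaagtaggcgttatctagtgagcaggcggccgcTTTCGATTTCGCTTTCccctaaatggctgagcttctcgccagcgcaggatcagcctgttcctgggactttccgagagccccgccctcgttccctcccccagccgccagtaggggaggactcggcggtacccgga
PSMB9, chr6:32853942-32854191 (+): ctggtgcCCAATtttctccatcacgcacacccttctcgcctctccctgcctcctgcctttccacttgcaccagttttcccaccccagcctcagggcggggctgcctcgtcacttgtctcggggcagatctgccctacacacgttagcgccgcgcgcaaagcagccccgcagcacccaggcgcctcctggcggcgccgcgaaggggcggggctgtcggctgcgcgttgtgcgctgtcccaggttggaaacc

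The response element core occurred in the 300-base windows of 5 of the 8 genes (B2M, HLA-F, PSMB8, TAP1 and TAP2) and in 3.57% of all 35116 windows. In B2M it lay from -144 to -129 and in TAP1 from -134 to -119, in each as a pair of overlapping matches. The PSMB9 window held neither the core nor the variant, and of the printed motifs CCAAT alone. TAP1 starts nearby on the opposite strand, and its pair of matches lies between both start sites, upstream of the PSMB9 window. In place of the core, HLA-B and HLA-C held the variant, which 1.46% of windows hold. The NF-kappaB motif was found in HLA-B alone among the 8 and in 0.424% of windows. TGACGC occurred in HLA-B, HLA-C and TAP2 and in 9.14% of windows, while TGACGCA, which contains it, and TGACGTCA occurred in none of the 8 genes (2.47% and 1.85% of windows). CCAAT, bound by NF-Y, occurred in 6 of the 8 genes and 34.6% of windows. Its TAP1 match (-249 to -245) and its PSMB9 match (-243 to -239) are the same bases, since the printed windows of these genes overlap. TTCNNNGAA, a STAT motif, occurred in PSMB8 and TAP1 and in 7.66% of windows. For TAP1 this match lay in the window not printed, and both PSMB8 matches (core and STAT motif) lay in the downstream of its windows. The variant and TGACGC were added after the windows had been seen. A match is a description of the letters and not a measured site.

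Between genes, levels were compared per kilobase of the listed gene length. In WT cells B2M was the highest of the 9 at 90.6 ± 3.23 CPM per kb (SD, n = 3), followed by HLA-E at 54.4 ± 1.09, HLA-C at 38.7 ± 0.504 and HLA-B at 16.9 ± 2.28 CPM per kb. TAP1 (7.09 ± 0.332), PSMB8 (6.78 ± 0.968) and HLA-F (6.58 ± 0.385 CPM per kb) did not differ beyond their spread. TAP2 at 3.54 ± 0.344 and PSMB9 at 1.46 ± 0.279 CPM per kb were the lowest. In Tyr19Phe cells TAP1 (11.2 ± 0.590 CPM per kb) stood above HLA-F (8.19 ± 0.345) and PSMB8 (8.16 ± 0.821), which did not differ beyond their spread.

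**Figure D1:**
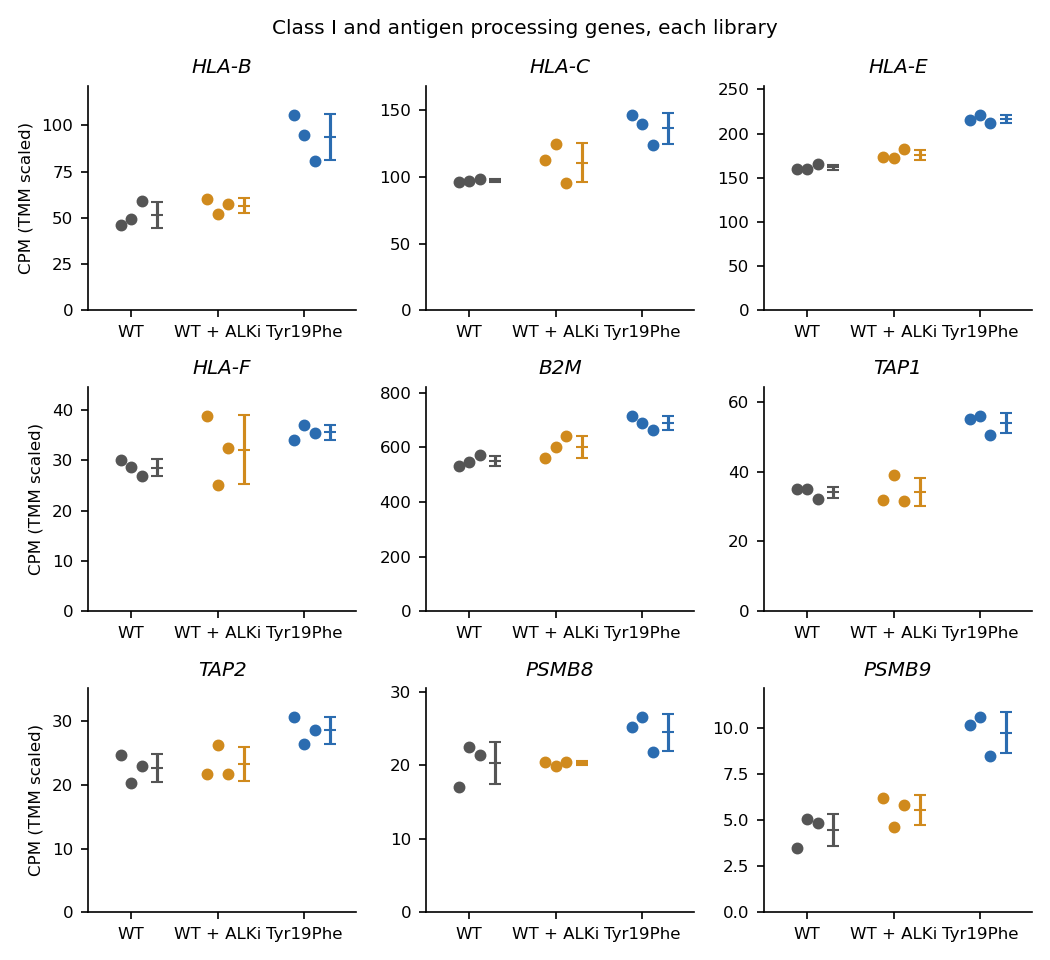
Each panel plots 1 gene in TMM-scaled CPM on an axis that starts at 0, with a point for every library and, beside the points, the group mean and SD (n = 3). The 3 Tyr19Phe libraries lie above the 3 WT libraries for every gene shown except PSMB8, where Tyr19Phe replicate 3 (21.7 CPM) lies below WT replicate 2 (22.5 CPM).

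The comparison of Tyr19Phe with WT cells asks what the phospho-deficient CDK9 changes. Of the 9 genes, 8 were higher (edgeR adjusted p under 0.05) and none was lower, whereas 1245 of all 16350 genes tested (7.61%) were higher and 1695 (10.4%) lower. Scaling by library size alone gave 1544 higher and 1451 lower genes, with the same 8 genes higher. The median log2 fold change of the 9 was 0.42, against 0.00 over all genes tested. In 8 of the 9 every Tyr19Phe library exceeded every WT library, as in 15.4% of genes tested.

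Among the 4 heavy chains, HLA-B changed most. Its 3 WT libraries held 45.9, 49.6 and 59.3 CPM, the ALK inhibitor libraries 60.0, 52.3 and 57.4 CPM, and the Tyr19Phe libraries 105, 94.8 and 80.5 CPM. The Tyr19Phe libraries stood apart from the other 6, which overlapped. The log2 fold change over WT was 0.86 ± 0.09 (SE), or 1.81-fold (edgeR adjusted p = 7.61e-09). HLA-C, which like HLA-B presents peptides to T cells and also engages killer-cell receptors, held 96.2, 96.6 and 98.6 CPM in WT, 112, 124 and 95.4 CPM with the inhibitor, and 146, 139.7 and 124 CPM with Tyr19Phe. The Tyr19Phe libraries lay above WT, and the lowest of them overlapped with the inhibitor libraries. HLA-C rose by 0.49 ± 0.07 on the log2 scale over WT (edgeR adjusted p = 3.07e-06).

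HLA-E, which displays signal peptides of other class I chains to natural killer receptors, held 159.6, 160.4 and 166 CPM in WT, 173, 173 and 183 CPM with the inhibitor, and 216, 221 and 212 CPM with Tyr19Phe. The 3 groups did not overlap and had small spreads. Its log2 fold change with Tyr19Phe was 0.42 ± 0.05 (edgeR adjusted p = 2.42e-08). HLA-F held 30.2, 28.7 and 26.8 CPM in WT, 38.8, 25.1 and 32.4 CPM with the inhibitor, and 34.1, 37.1 and 35.4 CPM with Tyr19Phe. The inhibitor libraries spanned both other groups. The log2 fold change of HLA-F with Tyr19Phe was 0.32 ± 0.11 (edgeR adjusted p = 0.0432), and this call was lost when any single WT or Tyr19Phe library, or ALK inhibitor replicate 3, was left out (adjusted p up to 0.15) and with DESeq2 (adjusted p = 0.0612).

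Of a list of 5 other class I genes and pseudogenes, 3 were tested and none was called in any of the 3 comparisons. Class I genes resemble each other in sequence: 1.75% of the 50-base stretches of HLA-B transcripts, 5.46% of those of HLA-C, 4.01% of HLA-E and 0.524% of HLA-F also occurred in transcripts of another HLA gene. SKOV3 alleles may differ from the reference, and how reads were shared among these genes is not given in the sources, so their counts are uncertain to that extent.

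B2M, the light chain common to all class I molecules, held 534, 546 and 572 CPM in WT, 563, 603 and 644 CPM with the inhibitor, and 714, 689.7 and 662 CPM with Tyr19Phe. Every Tyr19Phe library exceeded every other. The log2 fold change over WT was 0.32 ± 0.04 (edgeR adjusted p = 7.23e-07).

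The transporter genes followed. TAP1 held 35.1, 34.9 and 32.2 CPM in WT, 31.99, 38.9 and 31.7 CPM with the inhibitor, and 55.0, 55.8 and 50.6 CPM with Tyr19Phe. WT and inhibitor libraries overlapped, and Tyr19Phe libraries stood above both, with a log2 fold change over WT of 0.66 ± 0.09 (edgeR adjusted p = 1.05e-06). TAP2 held 24.6, 20.3 and 22.9 CPM in WT, 21.6, 26.3 and 21.8 CPM with the inhibitor, and 30.6, 26.4 and 28.6 CPM with Tyr19Phe. Its log2 fold change was smaller, 0.34 ± 0.11 (edgeR adjusted p = 0.0286), and was not called without WT replicate 2, WT replicate 3, Tyr19Phe replicate 1 or Tyr19Phe replicate 3 (adjusted p from 0.0601 to 0.144).

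Of the immunoproteasome subunits, PSMB9 was the least abundant of the 9 genes and had the largest fold change. It held 3.49, 5.07 and 4.86 CPM in WT, 6.22, 4.67 and 5.84 CPM with the inhibitor, and 10.2, 10.6 and 8.53 CPM with Tyr19Phe, from 68 to 301 counts per library. The log2 fold change over WT was 1.13 ± 0.20, or 2.19-fold (edgeR adjusted p = 6.48e-05). PSMB8 held 17.0, 22.5 and 21.4 CPM in WT, 20.5, 19.9 and 20.5 CPM with the inhibitor, and 25.1, 26.5 and 21.7 CPM with Tyr19Phe. The WT libraries overlapped with both other groups, while every Tyr19Phe library lay above every inhibitor library. The log2 difference of PSMB8 from WT, 0.27 ± 0.12, did not pass the test (edgeR adjusted p = 0.113). Over the 17 refits this difference ran from 0.16 to 0.35 and was never called. PSMB10, the remaining inducible subunit and not one of the 9, held 3.64, 4.49 and 2.73 CPM in WT, 4.27, 4.01 and 2.95 CPM with the inhibitor, and 5.79, 7.33 and 8.56 CPM with Tyr19Phe. It rose by 1.00 ± 0.24 on the log2 scale (edgeR adjusted p = 0.00265).

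**Figure D2:**
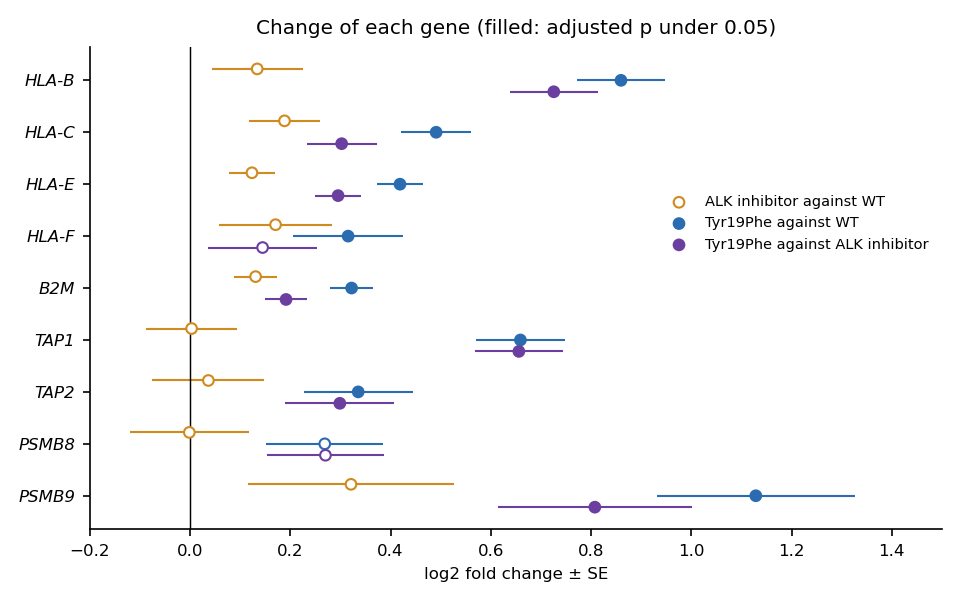
Log2 fold changes with their standard errors are plotted for the 9 genes in the 3 comparisons, filled where the edgeR adjusted p was under 0.05. With Tyr19Phe against WT, 8 of the 9 points are filled, from 0.32 to 1.13, while no point is filled for the ALK inhibitor against WT.

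The comparison of ALK inhibitor with untreated WT cells asks what 24 h of ALK inhibition changes. None of the 9 genes was called by edgeR, where 297 genes tested (1.82%) were higher and 447 (2.73%) lower. Scaling by library size alone gave 406 higher and 344 lower. At an unadjusted p under 0.05, HLA-C, HLA-E and B2M were higher, and DESeq2 called 1 gene, B2M (log2 fold change 0.13, DESeq2 adjusted p = 0.0377). The 9 log2 differences ran from -0.00 for PSMB8 to 0.32 for PSMB9, with a median of 0.13 against -0.00 over all genes tested. Over the 17 refits PSMB8 ran from -0.11 to 0.08 and PSMB9 from 0.17 to 0.43. B2M came nearest to the threshold in edgeR (0.13 ± 0.04, adjusted p = 0.0762), and it passed when library size alone set the scaling, without a filter on low counts, and without WT replicate 3 or ALK inhibitor replicate 1 (adjusted p from 0.0149 to 0.0498). HLA-C passed without ALK inhibitor replicate 3 (0.28, edgeR adjusted p = 0.0157). The absence of a call does not show that these genes did not differ.

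The direct comparison of Tyr19Phe with ALK inhibitor cells tests the difference between both effects, which share the WT libraries. Of the 9 genes, 7 were higher in Tyr19Phe cells, where 9.57% of genes tested were higher and 11.1% lower. The log2 fold changes were 0.73 for HLA-B, 0.30 for HLA-C, 0.30 for HLA-E, 0.19 for B2M, 0.66 for TAP1, 0.30 for TAP2 and 0.81 for PSMB9. TAP2 was at the edge of the threshold (edgeR adjusted p = 0.0482) and lost its call without WT replicate 1 or 3, ALK inhibitor replicate 1 or 3, or Tyr19Phe replicate 1 or 3 (adjusted p up to 0.187), with DESeq2, with no filter on low counts and with a replicate block. HLA-F (0.14 ± 0.11, edgeR adjusted p = 0.396) and PSMB8 (0.27 ± 0.12, edgeR adjusted p = 0.102) were not called. Over the 17 refits the HLA-F value ran from -0.002 to 0.31.

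Ratios of levels per kb described the balance between subunits, with no test. HLA-B stood to HLA-C at 0.436 ± 0.0528 (SD, n = 3) in WT, 0.426 ± 0.0752 with the inhibitor and 0.562 ± 0.0290 with Tyr19Phe. PSMB9 to PSMB6 was 0.0398 ± 0.0103 in WT, 0.0493 ± 0.00782 with the inhibitor and 0.0839 ± 0.00685 with Tyr19Phe, and every Tyr19Phe library was above the other 6. PSMB8 to PSMB5 was 0.0954 ± 0.00883 in WT and 0.121 ± 0.0133 in Tyr19Phe cells. TAP2 to TAP1 was 0.50 ± 0.0547 in WT and 0.400 ± 0.0377 in Tyr19Phe cells.

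**Figure D3:**
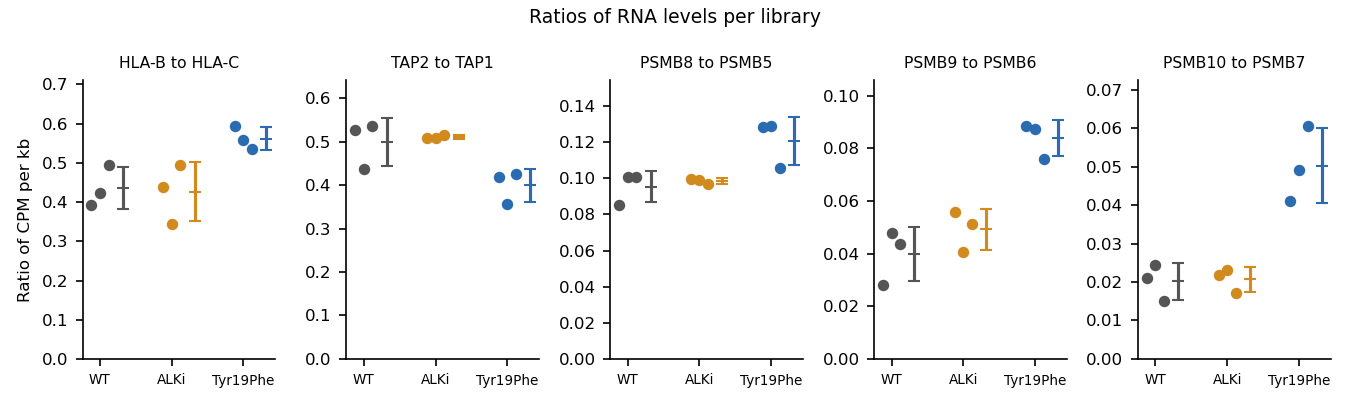
Ratios of CPM per kb are plotted for each library with the group mean and SD (n = 3), on axes that start at 0. The ratio of HLA-B to HLA-C is 0.562 in Tyr19Phe cells against 0.436 in WT, and that of PSMB9 to PSMB6 is 0.0839 against 0.0398.

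Other genes of the pathway were read from lists. Of 14 constitutive proteasome core genes, none was higher and 4 were lower with Tyr19Phe (median log2 fold change -0.09), among them PSMB7 (-0.32, edgeR adjusted p = 2.60e-05) and PSMA3 (-0.31, adjusted p = 5.37e-05); PSMB5 and PSMB6 were at -0.07 and 0.03 and were not called. Of 7 immunoproteasome partners and activators, PSMB10 was higher and POMP, the proteasome assembly factor (-0.26), and PSME3 (-0.12) were lower, while the interferon-inducible activator genes PSME1 (-0.12) and PSME2 (0.07) were not called. The PSME3 call was lost with either other edgeR scaling, with either other filter, with only the groups compared and in 8 of the 9 fits that left out 1 library, those other than the fit without Tyr19Phe replicate 2. Of 9 genes of the peptide loading complex and its chaperones, TAPBP, which bridges TAP and class I, was higher (0.22, edgeR adjusted p = 0.00125) and UGGT1 (-0.24) and HSPA5 (-0.11) were lower; the HSPA5 call was lost with library size alone, with no filter on low counts and without any single WT library or Tyr19Phe replicate 2 or 3. Of 10 trimming peptidases, THOP1 was higher (0.17) and NRDC lower (-0.16), and ERAP1 (0.15) and ERAP2 (0.10), which trim peptides in the endoplasmic reticulum, were not called. The THOP1 call was lost without WT replicate 1 or 3 or Tyr19Phe replicate 1 or 2, and with only the groups compared. Those of the core genes PSMA4 (-0.17) and PSMB1 (-0.17) were each lost without WT replicate 1 or Tyr19Phe replicate 1, and PSMA4 also without WT replicate 3 or Tyr19Phe replicate 2, and PSMB1 without WT replicate 2.

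Of 15 regulators of class I transcription, 2 were higher and 1 was lower with Tyr19Phe. NLRC5 held 24.1, 25.5 and 27.4 CPM in WT, 29.3, 34.3 and 32.9 CPM with the inhibitor, and 39.8, 38.4 and 43.5 CPM with Tyr19Phe, with no overlap between groups. It rose by 0.66 ± 0.09 with Tyr19Phe (edgeR adjusted p = 3.08e-06) and by 0.33 ± 0.10 with the inhibitor (edgeR adjusted p = 0.0462). The second of these calls was lost without WT replicate 1 or 2, ALK inhibitor replicate 2 or 3, or Tyr19Phe replicate 1 or 2 (adjusted p up to 0.207), and with only the groups compared. Between Tyr19Phe and inhibitor cells NLRC5 differed by 0.34 (edgeR adjusted p = 0.00862), a call lost without ALK inhibitor replicate 1 or Tyr19Phe replicate 3. RELA, a NF-kappaB subunit, was higher (0.16) and EZH2, a histone methyltransferase, lower (-0.23) with Tyr19Phe. The RELA call was lost without WT replicate 1 or Tyr19Phe replicate 3, and that of EZH2 without WT replicate 1 or 3 or Tyr19Phe replicate 1 or 2. IRF1 was at 0.00 ± 0.10 (edgeR adjusted p = 0.998).

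Of 22 interferon-stimulated genes tested, OAS3 (0.28) and GBP1 (0.66) were higher with Tyr19Phe, none was lower, and the median was 0.30. Over all genes tested, 7.61% were higher and 10.4% lower. The GBP1 call was lost without WT replicate 3 (edgeR adjusted p = 0.0505). Of 12 interferon receptor and signalling genes, STAT2 alone was called (0.26, edgeR adjusted p = 0.0380), with a median of 0.06, and lost its call without WT replicate 2 or 3 or Tyr19Phe replicate 1 or 3. The list of class I-like genes and natural killer ligands also held CD274, which encodes the checkpoint ligand PD-L1. Of its 10 tested genes, CD274 alone was called, and it was higher (1.07, edgeR adjusted p = 0.00183). It held 3.13, 2.69 and 2.30 CPM in WT, 3.99, 3.79 and 3.36 CPM with the inhibitor, and 5.55, 5.23 and 6.26 CPM with Tyr19Phe, with no overlap between groups, and the difference between Tyr19Phe and inhibitor cells was not called (0.61, edgeR adjusted p = 0.0676).

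With the ALK inhibitor, ERAP2 was higher (0.22, edgeR adjusted p = 0.0250), as was NLRC5, while JAK1 (-0.13, adjusted p = 0.0388) and PVR, a ligand of the receptors DNAM-1 and TIGIT (-0.26, adjusted p = 4.58e-04), were lower. No gene was called in the lists of interferon-stimulated genes, proteasome core, immunoproteasome partners or loading complex. JAK1 lost its call with library size alone, with no filter on low counts and without any single WT or ALK inhibitor library or Tyr19Phe replicate 3. The ERAP2 call was lost without WT replicate 2 or ALK inhibitor replicate 2 or 3.

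**Figure D4:**
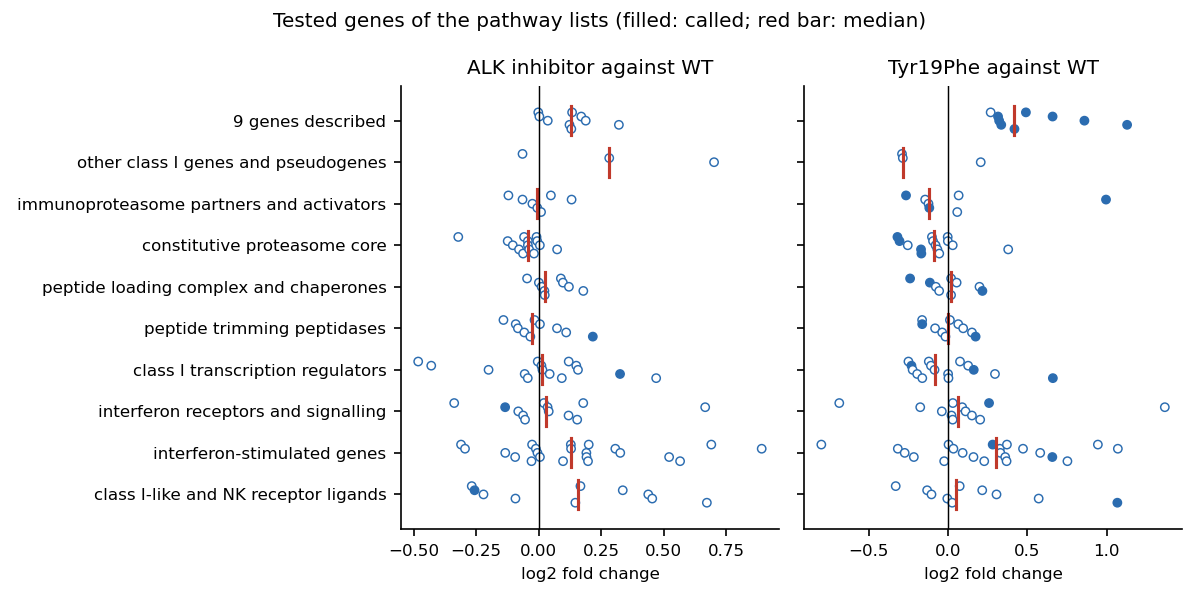
Log2 fold changes of the tested genes are plotted by list for the ALK inhibitor and for Tyr19Phe, each against WT, filled where called, with a red bar at the list median. The median of the 9 genes is 0.42 with Tyr19Phe, against -0.09 for the constitutive proteasome core and 0.30 for interferon-stimulated genes.

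The genes lie in gene-dense regions, and their neighbours were read beside them with no test. On chromosome 6, the 99 tested genes from HLA-F to PSMB9 other than the 9 had a median log2 fold change of 0.14 with Tyr19Phe, and 11.1% of them were higher (11 genes, with 2 lower), against 7.61% higher and 10.4% lower over all genes tested. Within 5 Mb of HLA-F (198 genes) the median was 0.12, with 14.6% higher (29 genes, with 4 lower), and within 5 Mb of TAP1 (192 genes) it was 0.06, with 8.85% higher (17 genes, with 9 lower). Over all 838 other tested genes of chromosome 6 the median was 0.01. Around B2M on chromosome 15 (117 genes) it was -0.05, with 1.71% higher (2 genes, with 14 lower). The values of HLA-F (0.32) and PSMB8 (0.27) were nearer to those of their neighbours than that of HLA-B (0.86). A difference in copy number between the lines was not tested.

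**Figure D5:**
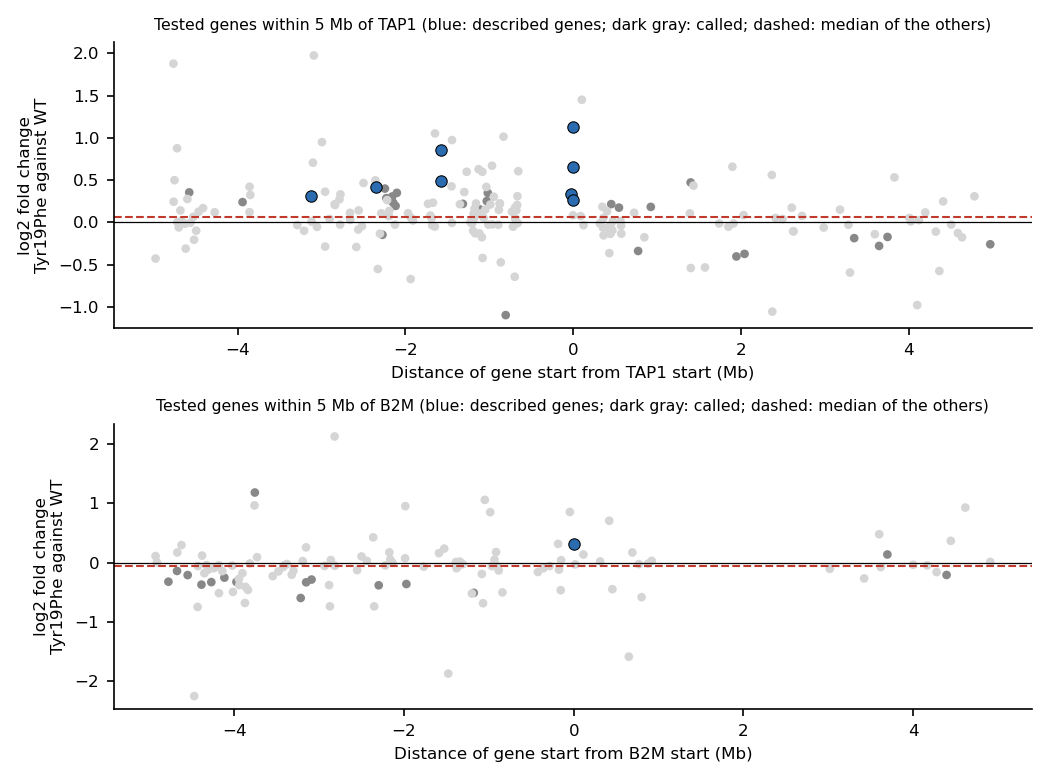
Log2 fold changes of Tyr19Phe against WT are plotted for tested genes within 5 Mb of TAP1 and of B2M by distance between gene starts, with the 9 genes in blue, called neighbours in dark gray and a dashed line at the median of the neighbours. The medians are 0.06 around TAP1 and -0.05 around B2M, and the blue points lie above them.

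Several of the genes overlap others, and whether counting used strand is not given in the sources. In GENCODE release 44, which may not be the annotation used for counting, 32.7% of HLA-B exon bases were shared with exons of another gene on the same strand, as were 19.5% for TAP2 and 5.21% for PSMB9. Exons on the opposite strand covered 28.0% of HLA-F, 17.3% of PSMB8, 14.8% of HLA-B, 14.2% of TAP1 and 4.16% of PSMB9 exon bases. Without strand, reads of such genes cannot be told apart. In that release HLA-C, HLA-E and B2M had no such overlap. The deposited table, however, lists HLA-B from 31269491 to 31357188, a span that takes in most of HLA-C (31268749 to 31272130) on the same strand, with a length of 3051 bases against 4623 exon bases in GENCODE. Whether counted exons of both genes overlapped was not tested, so their counts and ratio are uncertain to that extent. PSMB9 is likewise listed from 32844136 to 32859585, a span that takes in TAP1 (32845209 to 32853978), on the opposite strand. That span also reaches into PSMB8 (32840717 to 32844703), on the same strand as TAP1. Overlap of their counted exons was not tested either.

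Cell type markers were read for the whole of each list. Of 12 leukocyte markers none passed the filter, their summed level was 0.220 to 1.33 CPM per library, and the defining genes LYZ and TYROBP were at 0 in all 9. Of 11 class II genes 2 passed the filter, HLA-DMA and HLA-DMB, and neither was called, with HLA-DPA1, HLA-DPB1, HLA-DQA1, HLA-DQB1 and HLA-DOA at 0 throughout. Of 8 stromal and endothelial markers, COL1A1 alone passed. The endothelial gene CDH5, below the filter and so not tested, had 0 counts in each WT library, 0, 1 and 0 with the inhibitor, and 14, 35 and 17 with Tyr19Phe. The other endothelial genes of the list, also below the filter, did not follow it: PECAM1 had 2, 3 and 0 counts in WT and 0 in every other library, and VWF had 1, 3 and 12 counts in WT, 1, 9 and 1 with the inhibitor, and 17, 4 and 11 with Tyr19Phe, so its groups overlapped. COL1A1 was higher with the inhibitor (0.35, edgeR adjusted p = 0.0111), a call lost with DESeq2 and without WT replicate 1 or ALK inhibitor replicate 2 or 3, and lower with Tyr19Phe (-1.46, edgeR adjusted p = 1.04e-13). Of 11 SKOV3 and epithelial markers, 10 were tested. ERBB2, which SKOV3 cells are known to express strongly, held 1768 to 1858 CPM in WT, and 2 of the list were higher and 4 lower with Tyr19Phe. The 5 calls with the smallest adjusted p were KRT8 (0.38) and KRT18 (0.39), higher, and KRT19 (-1.24), MSLN (-1.67) and ERBB2 (-0.29), lower. With the inhibitor ERBB2 (0.54) and KRT19 (0.21) were higher and KRT7 (-0.35) lower, the KRT19 call being lost without WT replicate 1 or ALK inhibitor replicate 3. Their part in the class I values was not tested.

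The protein-coding genes outside the lists with patterns most like the mean of the 9 genes, among 12104 compared over the 9 libraries, were PRMT6 (Pearson r = 0.993), PLXNA2 (0.986), SRPX (0.983), VIM (0.977) and SPOCK1 (0.977). Each r is a description, since libraries of a group share their condition and the genes were picked as the highest. VIM, the intermediate filament vimentin, averaged 1146 CPM in WT, 1245 CPM with the inhibitor and 1493 CPM with Tyr19Phe. Of the 9 genes, HLA-E (0.973) and HLA-B (0.972) were nearest to the mean of the other 8 and HLA-F (0.514) the farthest.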

How the data were processed

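RNA of SKOV3 cells was sequenced in 3 groups of 3 libraries, grouped by the deposited labels. The authors deposited whole-number counts of reads per gene without normalization. The submitters' processing notes name CASAVA, HISAT2 2.0.5, featureCounts 1.5.0-p3 and the build GRCh38 (hg38). The annotation release and strandedness are not given in the sources used here. Of the 58735 listed genes, 58207 identifiers were found in GENCODE release 44, 58169 of them on the same chromosome within 1 Mb. Library totals ran from 18169050 to 29320184 counts.

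Counts were fitted with edgeR 4.0.16 (R 4.3.3, limma 3.58.1), with filterByExpr (minimum count 10, minimum total 15), TMM scaling, 1 mean per group over all 9 libraries (6 residual degrees of freedom) and glmQLFTest. P-values were adjusted by Benjamini-Hochberg over the 16350 genes tested, and a gene was called at an adjusted p under 0.05. Log2 CPM used a prior count of 2. DESeq2 1.42.0 was an alternative, as were other scalings, filters, thresholds, a replicate block and fits without each library. A fit without ALK inhibitor replicate 2 and Tyr19Phe replicate 3 was chosen after seeing the data. Ratios, neighbours and motifs were described with Python 3.11.15, numpy 2.4.6, pandas 2.3.3, scipy 1.17.1 and matplotlib 3.10.9, using RefSeq promoter windows of 250 bases before to 50 after a start site.

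The genes described and the lists were chosen with earlier results of these data known. Named were the 9 genes, from each list up to 5 called genes with the smallest adjusted p in each comparison against WT, 12 genes whatever their values (NLRC5, IRF1, TAPBP, PSMB10, PSMB5, PSMB6, PSMB7, ERAP1, ERAP2, PSME1, PSME2 and CDK9) and the 5 protein-coding genes of at least 1 CPM most like the 9. For Tyr19Phe against the ALK inhibitor, calls in the other lists were left unnamed, apart from NLRC5 and CDK9. CDH5, PECAM1, VWF, marker genes at 0 and the class II genes fell outside this rule and were named after their values were seen. Some items are withheld for evaluations and are not reported here.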

Additional observations from a re-analysis of the deposited data

How the results depend on the processing

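With Tyr19Phe against WT, HLA-B, HLA-C, HLA-E, B2M, TAP1 and PSMB9 were called in all 17 refits, and 6 to 8 of the 9 genes were called in the fits that left out 1 library. Against the ALK inhibitor the count was 6 to 7, and TAP2 was not called with the replicate block (adjusted p = 0.0509). For the ALK inhibitor against WT, where edgeR called 0, the count was 1 with library size alone, 1 with DESeq2, 1 with no filter on low counts, 3 at an unadjusted p under 0.05, and 0 to 1 without 1 library. No log2 fold change of the 9 genes that was called changed sign.

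Over all genes, an adjusted p under 0.01 called 427 genes for the ALK inhibitor, 1850 for Tyr19Phe against WT and 2088 for Tyr19Phe against the ALK inhibitor, and an unadjusted p under 0.05 called 2473, 4739 and 5145, against 744, 2940 and 3387 in the fit as reported. The changed threshold is the cause of these. Leaving out 1 library gave 491 to 738, 2180 to 3038 and 2622 to 3426, the lowest of the first without WT replicate 1. Leaving out ALK inhibitor replicate 2 and Tyr19Phe replicate 3, an alternative chosen after seeing the data, gave 530, 2482 and 2267 genes. Of the 9, it called 0, 8 and 7. Both libraries had the fewest genes detected in their group, as had WT replicate 3 (21241 genes), which was kept.

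Deviations of libraries from their group means correlated from -0.012 to 0.026 where the replicate number was the same. Where the number differed, the correlations ran from -0.034 to 0.020. These values do not show whether a number marks a shared batch, and the labels do not say. With the replicate block 818, 3076 and 3465 genes were called, and 0, 8 and 6 of the 9. Depth limits PSMB9, at 68 to 301 counts per library, more than B2M. No test for outlying libraries was run in groups of 3.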
